A study of Mus musculus with 8 samples.

Results

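This account covers the histone genes of a nascent RNA data set from mouse embryonic stem cells. The members are the genes whose names follow the histone nomenclature. The name pattern matched 76 of the 16940 listed genes. H3f3aos, which is annotated as an antisense transcript of H3f3a, was set aside, which left 75. Of these, 67 were named for the replication-dependent histone clusters and are called clustered genes here, although 2 of them stand alone in the genome. The other 8 were variant genes: H1f0, H1f10, H2aj, H2ax, H2az1, H2az2, H3f3a and H3f3b. Macroh2a1, Macroh2a2 and Cenpa encode further variants whose names fall outside the pattern, and they are reported apart.

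All samples were E14 cells, a mouse embryonic stem cell line, grown without serum on gelatin with LIF, PD0325901 and CHIR99021. The genotype of all of them carried CTCF-AID, CTCF fused to the auxin-inducible degron, a tag that lets IAA (auxin) trigger the breakdown of the fused protein. CTCF is a zinc finger protein that binds DNA and holds cohesin at the borders of chromatin loops. There were 4 groups of 2 libraries each: the control overexpression line without IAA (untreated control), the same line with 12 h of IAA (IAA control), a line overexpressing wild-type CTCF with 12 h of IAA, and a line overexpressing mutated CTCF with 12 h of IAA. The mutation, the promoter of the constructs and the clonal origin of the lines are not given in the sources used here. The lines with overexpressed CTCF are represented with IAA alone, so the action of the constructs in untreated cells was not analysed here. The comparisons address what changes with IAA, and what differs between the lines when wild-type or mutated CTCF is supplied. No cells without the tag received IAA, so effects of IAA itself and of CTCF loss cannot be told apart. Effects of the constructs and other differences between the lines cannot be told apart either. The transcript of CTCF itself was not analysed here.

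The assay was transient transcriptome sequencing (TT-seq). Cells received 400 µM 4-thiouridine for 15 min, and the labelled, newly made RNA was fragmented, biotinylated, captured and sequenced in strand-specific libraries. The capture does not select for poly(A) tails. Values are the authors' normalized read counts per gene.

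Histones package DNA: H2A, H2B, H3 and H4 form the nucleosome core, and H1 binds the linker DNA. The clustered genes supply most new histone protein while DNA is being copied, and their transcription and their mRNA are tied to S phase. Most have no introns, and their mRNAs end without a poly(A) tail in a short stem-loop that is bound by SLBP, with cleavage guided by the U7 particle. Variant genes are transcribed outside S phase as well. They mostly make spliced or polyadenylated mRNAs, and their products, such as H3.3 and H2A.Z, can be exchanged into chromatin without replication. Mouse embryonic stem cells divide rapidly and spend much of the cycle in S phase.

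The stem-loop is the sequence that sets the clustered genes apart, so 1 example per family is printed, with a further H4 gene and the only variant gene with a match. Each line gives 26 bases of GRCm38 with the 16-base stem-loop in capitals. The printed DNA has T where the RNA has U.
H1f5 (chr13:21779832-21779857, minus strand): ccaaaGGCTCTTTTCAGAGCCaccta
H2ac4 (chr13:23751567-23751592, plus strand): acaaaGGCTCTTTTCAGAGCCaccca
H2bc8 (chr13:23571838-23571863, plus strand): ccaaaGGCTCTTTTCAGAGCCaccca
H3c6 (chr13:23561898-23561923, minus strand): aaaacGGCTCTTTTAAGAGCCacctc
H4c4 (chr13:23581945-23581970, plus strand): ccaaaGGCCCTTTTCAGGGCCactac
H4c9 (chr13:22040961-22040986, minus strand): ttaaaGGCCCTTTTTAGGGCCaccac
H2ax (chr9:44335235-44335260, plus strand): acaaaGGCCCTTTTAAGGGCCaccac
A stem-loop was found within 150 bases after the stop codon in 59 of the 63 protein-coding clustered genes (93.7%). It was found in 1 of the 8 variant genes, H2ax, and in 66 of all 21752 protein-coding genes (0.303%). Of the 6 matches outside the members, 5 carried histone names, and the sixth was Bap1, which encodes a deubiquitinase. The protein-coding clustered genes without a match were H4c2, H4c11, Hist1h2an and H2bc21. The other 4 clustered members are annotated as pseudogenes and were not searched. The sequence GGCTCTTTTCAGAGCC was the match in 37 genes, which included members of H1, H2A, H2B and H3. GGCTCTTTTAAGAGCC was the match in 9, and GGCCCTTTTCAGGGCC in 8, all of them H4 genes. H4c9 shared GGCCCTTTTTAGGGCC with 1 other H4 gene.

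Promoters are shown for H1f4 and H2bc8, since both genes differed between the groups and their promoters hold the family elements. Each line gives the 250 bases before the transcription start in RefSeq on GRCm38.p6. Capitals mark the TATA box (TATAAA), the CCAAT box (CCAAT, either strand), the octamer (ATTTGCAT) and the H1 box (AAACACA).
H1f4 (chr13:23622559-23622808, minus strand): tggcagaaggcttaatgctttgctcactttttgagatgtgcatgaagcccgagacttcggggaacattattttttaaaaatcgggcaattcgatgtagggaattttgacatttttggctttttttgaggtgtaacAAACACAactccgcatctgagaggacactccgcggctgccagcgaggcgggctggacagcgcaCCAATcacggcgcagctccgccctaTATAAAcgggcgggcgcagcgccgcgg
H2bc8 (chr13:23571150-23571399, plus strand): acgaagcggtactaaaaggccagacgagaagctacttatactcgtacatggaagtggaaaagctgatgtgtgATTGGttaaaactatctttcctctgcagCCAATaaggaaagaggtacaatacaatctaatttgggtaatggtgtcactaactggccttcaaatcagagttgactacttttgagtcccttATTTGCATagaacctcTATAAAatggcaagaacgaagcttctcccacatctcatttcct
The RefSeq table held a promoter for 50 of the 67 clustered genes and for 7 of the 8 variant genes. The letters were searched on both strands, and none of these motifs contains another. The TATA box was present in 25 of the 50 clustered promoters, against 12.37% of all 32851 promoters. The CCAAT box was present in 42 of 50 (84.0%), against 33.85% of all. It was in every H1, H2A and H2B promoter searched (6, 13 and 12) and in 3 of 10 H4 promoters. The octamer was found in 6 of 13 H2A and 5 of 12 H2B promoters and in 0 of the H1, H3 and H4 promoters, against 1.6% of all. The H1 box was found in 5 of 6 H1 promoters, against 6.25% of all. The core letters of the CTCF motif (CC, 3 bases of any kind, AG, 2 bases of any kind, GGC) matched 1 of the 50 clustered promoters, that of H3c15, against 7.17% of all. These matches are descriptions of the letters in this window.

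The clustered genes belonged to H1 (6 genes), H2A (19), H2B (18), H3 (11) and H4 (13). Of the 67, 56 lay in cluster 1 on chromosome 13. Its lower-coordinate part, chr13:21715763-22043676, held 24 genes and its upper part, chr13:23531050-23934851, held 32. Cluster 2, chr3:96219865-96269141, held 7 genes, and cluster 3, chr11:58948920-58954512, held 2. H4f16 on chromosome 6 and the pseudogene Hist1h2al on chromosome 13 stood alone. In GENCODE M21, 62 of the 67 had a single block of exons, with a median of 528 exon bases (range 312 to 7425).

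The copies are so alike that reads can match more than 1 of them. In 31 of the 67 clustered genes over 50% of the 50-base stretches of the exons recurred in another member. How the authors' counting treated such reads is not given in the sources used here, so values of single copies are uncertain and family sums are given beside them. H1f4 and H2bc6 also overlap on the same strand. In the variant genes 0 of 8 had over 50% of their stretches shared.

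The libraries held 15671114 to 21561141 recovered reads, and the clustered genes took 9.51 to 14.4 of every 10000 normalized reads. All 75 members had a mean of at least 10 normalized reads over the 8 libraries and were tested together with all other genes that did, 15818 in all. Of the clustered genes 12 had a mean under 50, and the median of the 67 means was 301. Per kilobase of exon, the highest mean levels over the 8 libraries were those of H1f5 (1867 normalized reads per kb), H1f1 (1491), H3c10 (1354), H3c11 (1326), H4c2 (1322) and H4c12 (1288). The order of the last 4 was not the same in every group, and without IAA H2bc8 was above H3c11 and H4c12. The highest variant was H3f3b at 1133 per kb, between H2bc8 (1209) and H4c6 (1104) in the mean over the 8 libraries. Within groups H3f3b was below H4c6 in the IAA control and above H2bc8 with wild-type CTCF. H2bc21, in cluster 2 and without a stem-loop match, had the lowest mean level over the 8 libraries at 8.42 per kb, although Hist1h2br was lower in the untreated control. Levels per kb rest on annotated exon lengths, which in some genes run far past the stem-loop. H1f3, for example, has 7425 exon bases, so these ranks depend on the annotation. The 8 naive stem cell markers were all listed (sums of 50301 to 61546), 0 of 6 fibroblast feeder markers were listed, and 2 of 8 markers of the 2-cell-like state were listed, with sums of 24.6 and 27.1 with wild-type CTCF and 8.4 to 11.9 in the other libraries. The 5 germ cell markers summed to 5426 and 5865 reads without IAA, 6548 and 6618 with IAA, 5923 and 6184 with wild-type CTCF and 5870 and 5855 with mutated CTCF, so the IAA control was highest, as it was in the clustered sum. The 4 listed of 6 primitive endoderm markers summed to 195 and 228 without IAA and 233 to 331 in the 6 IAA libraries, and the 2 listed of 5 trophoblast markers to 876 and 962 with wild-type CTCF and 598 to 684 in the others. The part of such cells in the histone results was not tested.

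The wild-type CTCF libraries stood apart from each other in the clustered genes. In 59 of 67 genes replicate 2 was above replicate 1, with a median log2 difference of 0.33, against 0.05 over all genes tested. In the mutated CTCF pair 55 of 67 genes were higher in replicate 2, with a median of 0.16. The untreated pair and the IAA control pair had medians of 0.02 and -0.03. Over all genes with enough reads, the wild-type CTCF pair differed by a chi-square of 3.35 per degree of freedom and the other pairs by 1.34 to 1.65. Counts of clustered genes, families and gene lists in the comparison of wild-type CTCF with the IAA control are therefore given with and without each of its libraries. The labels call the libraries replicates without saying that they came from separate cultures, so p-values measure only the spread between these samples. That spread was estimated per gene over all 4 groups together. The standard error (SE) of a gene is thus the same in every comparison and does not carry the wider spread of the wild-type CTCF pair. The p-values of comparisons with wild-type CTCF may therefore be too small. Fewer cells in S phase and less RNA per cell cannot be told apart in such bulk samples.

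**Figure D1:**
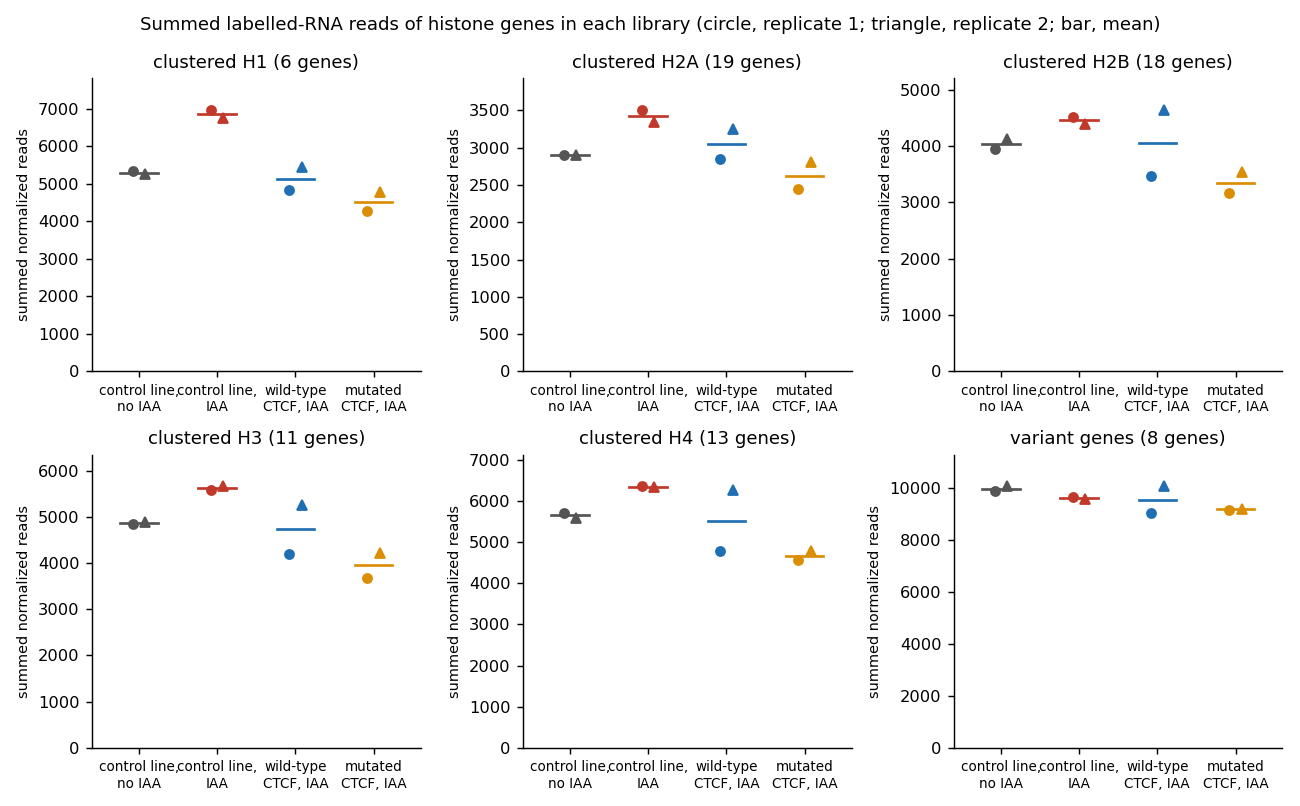
Summed normalized reads of the clustered genes of each family and of the 8 variant genes in each library, with a circle for replicate 1, a triangle for replicate 2 and a bar for the mean of the 2. In each clustered family the IAA control has the highest mean and mutated CTCF the lowest, and the 2 wild-type CTCF libraries lie apart.

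IAA in the control line raised a subset of the clustered genes, and the H1 genes rose as a full family. The genes called higher all lay in cluster 1, where most of the clustered genes lie. Summed over the 67 clustered genes, the libraries held 22752 and 22767 normalized reads without IAA and 26950.0 and 26497 with IAA, so the groups did not overlap. Of the 67 genes, 23 rose and 0 fell at an adjusted p below 0.05 (limma, 2 libraries against 2), with a median log2 fold change of 0.21. Over all genes tested 37.7% were called, 19.4% higher and 18.4% lower, with a median of 0.00. The share of clustered genes called (34.3%) was thus near that of all genes, while the calls went one way. With libraries rescaled to the same total, which turned the split over all genes from 3062 higher and 2905 lower to 2568 higher and 4102 lower, 19 clustered genes rose and 2 fell (H4c14 and H4f16). When each library of the 2 groups was left out in turn, 13 to 18 were called, and 12 of the 23 kept their call each time. Without the mean-variance trend of limma 6 were called (H1f1, H1f2, H1f4, H1f5, H1f6 and H2ac15), when 1952 of all genes were higher and 1994 lower. The clustered share called higher was then below that of all genes. H1f3, H2ac4 and H2bc9 lost their call in that fit (adjusted p = 0.078, 0.069 and 0.051). DESeq2 called 14. The 8 variant genes had the sums 9889 and 10071 without IAA and 9656 and 9590 with IAA, and 3 of them fell while 0 rose.

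Wild-type CTCF with IAA was lower than the IAA control in part of the clustered genes, again with the H1 genes in front. The sums were 20128 and 24866 against 26950.0 and 26497, a difference that depended on the library: replicate 1 lay far below the IAA control and replicate 2 closer to it. Of the 67 genes, 25 fell and 0 rose, with a median log2 fold change of -0.23, against 31.6% of all genes called, 21.5% higher and 10% lower, with a median of 0.06. After median-of-ratios rescaling the calls over all genes were 2547 higher and 2513 lower, against 3407 and 1584 on the authors' scale, and 34 clustered genes fell. Without wild-type replicate 1, 11 clustered genes were called, 3 higher and 8 lower, with a median of -0.04. Without wild-type replicate 2, 38 fell, with a median of -0.36. Without the mean-variance trend 5 fell (H1f1, H1f4, H1f5, H3c15 and H4c9), when 1590 of all genes were higher and 789 lower. H1f2, H1f3 and H3c4 lost their call in that fit. DESeq2 called 15. The genes that kept their call without any 1 library were H1f1, H1f2, H1f3, H1f4, H1f5, H3c4, H3c15 and H4c9.

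Mutated CTCF with IAA gave the widest difference. The clustered sums were 18132 and 20122, the lowest of the 8, with wild-type replicate 1 next at 20128. Against the IAA control 47 of 67 clustered genes fell and 0 rose, with a median log2 fold change of -0.45. Over all genes 34.3% were called, 22% higher and 12.4% lower, with a median of 0.06. After median-of-ratios rescaling the calls over all genes were 2708 higher and 2682 lower, against 3473 and 1960, and 51 clustered genes fell. Leaving out each library of the 2 groups gave 39 to 47 calls, and 35 of the 47 genes kept theirs each time. Without the mean-variance trend 22 fell, when 1909 of all genes were higher and 1319 lower. In that fit H2ac4, H2ac15, H2bc3, H2bc8, H2bc11, Hist1h2bq, H3c6, H4c1 and H4f16, described below, lost their call. Of the 8 variant genes 2 fell and 1 rose.

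Set directly against each other, mutated CTCF was below wild-type CTCF in 26 clustered genes and above it in 1, with a median log2 difference of -0.21. Over all genes 34.7% were called, 16.3% higher and 18.4% lower. This count rested on the wild-type libraries: without wild-type replicate 1 it was 44 lower and 0 higher, and without wild-type replicate 2 it was 8 lower and 2 higher. Without mutated replicate 1 it was 14 lower and 1 higher, and without the mean-variance trend 5 lower and 0 higher. Over all genes the fit without that trend called 1466 higher and 1797 lower, so the clustered share called lower was then below that of all genes. The calls that did not depend on any 1 library were those of H1f1, H1f4, H2bc9, H2bc13, H3c2, H3c10 and H4f16, all lower with mutated CTCF. Of these, H2bc9, H3c2 and H3c10 lost their call without the mean-variance trend.

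Against the untreated control, the clustered genes of the wild-type CTCF libraries had a median log2 difference of -0.01. Of them 4 were higher and 6 lower, against 43.2% of all genes called, 27.6% higher and 15.6% lower. With libraries rescaled to the same total the split was 3 higher and 14 lower, while the calls over all genes turned from 4367 higher and 2461 lower to 3221 and 3854. Without wild-type replicate 1 it was 16 higher and 3 lower, and without wild-type replicate 2 it was 1 higher and 20 lower. For mutated CTCF against the untreated control 27 fell and 0 rose, with a median of -0.25, against 37.8% of all genes called, 24% higher and 13.7% lower. With libraries rescaled to the same total 39 clustered genes fell, and the calls over all genes turned from 3801 higher and 2174 lower to 2593 and 3420. Leaving out each library in turn gave 12 to 32 calls, the 12 without mutated replicate 1, and 10 of the 27 genes kept theirs each time. Without the mean-variance trend 4 clustered genes of the wild-type line and 6 of the mutated line were lower, when 1785 and 1567 of all genes were. Both clustered shares were then below those of all genes. For wild-type CTCF DESeq2 called 3 and edgeR 17. The IAA, wild-type and mutated comparisons share control libraries, so their values stand side by side and no overlap between them is read as a result.

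**Figure D2:**
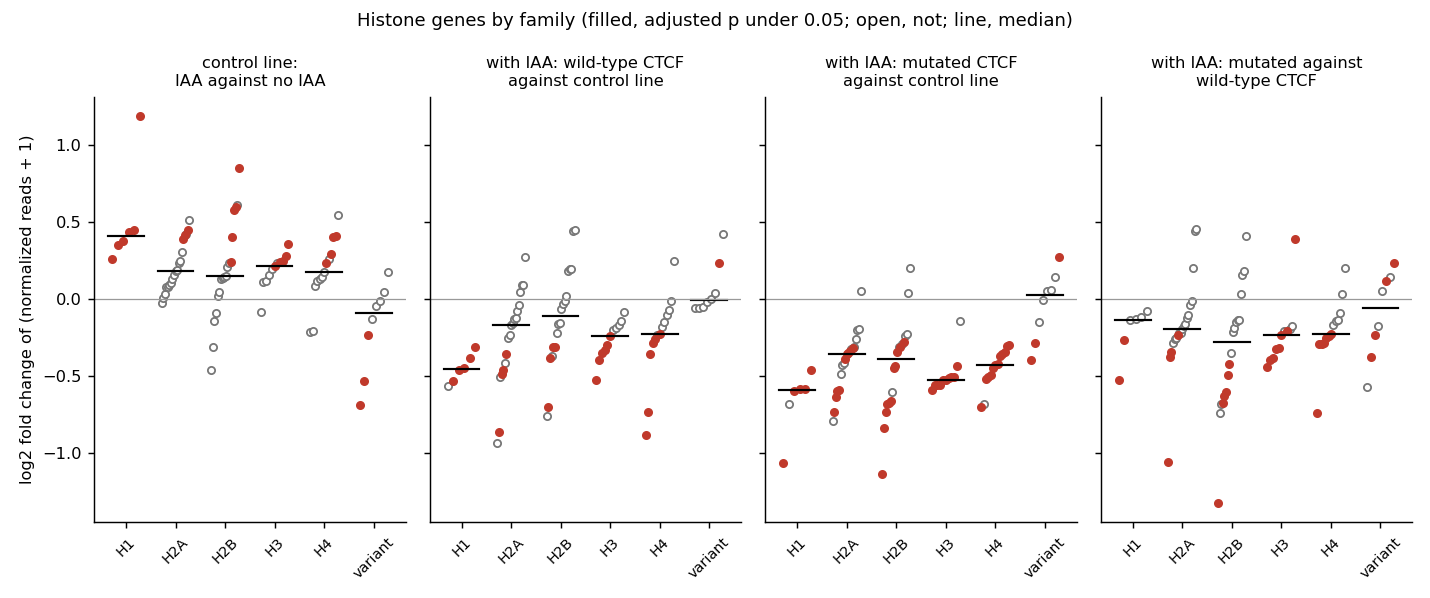
Log2 fold change (of normalized reads + 1) of each of the 67 clustered genes by family and of the 8 variant genes in 4 comparisons. Filled points passed an adjusted p of 0.05 in limma, open points did not, and lines are medians. All filled clustered points lie above 0 with IAA (23) and below 0 with mutated CTCF against the IAA control (47).

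All 6 clustered H1 genes, which encode linker histones, were called higher with IAA. H1f1 to H1f5 are the somatic linker histones, and H1f6 is the form of the male germ line. The 6 H1 genes summed to 5333 and 5267 reads without IAA, 6975 and 6749 with IAA, 4837 and 5438 with wild-type CTCF and 4280.0 and 4777 with mutated CTCF. Their median log2 fold change with IAA was 0.41, when 19.4% of all genes were called higher. Against the IAA control 5 of 6 fell with wild-type CTCF (median -0.45) and 5 of 6 with mutated CTCF (median -0.59), when 10% and 12.4% of all genes fell. The wild-type count was 5 without either wild-type library. H1 made up 23.44% and 23.13% of the clustered reads without IAA, 25.88% and 25.47% with IAA, 24.03% and 21.87% with wild-type CTCF and 23.60% and 23.74% with mutated CTCF. The IAA control libraries were the highest of the 8 in that share.

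H1f4 had the lowest fold change with mutated CTCF among clustered genes with a mean of at least 50. It held 492 and 489.6 normalized reads without IAA, 666 and 662 with IAA, 409 and 514 with wild-type CTCF and 313 and 322 with mutated CTCF. The mutated libraries were the lowest and the IAA control libraries the highest, with no overlap. The log2 fold change was 0.43 (SE 0.083, adjusted p = 4.7e-05) with IAA, -0.53 (SE 0.083, adjusted p = 3.1e-06) for wild-type CTCF against the IAA control and -1.06 (SE 0.083, adjusted p = 1.9e-13) for mutated CTCF. Mutated CTCF also lay below wild-type CTCF, at -0.53 (SE 0.083, adjusted p = 2.7e-06), and below the untreated control, at -0.63 (SE 0.083, adjusted p = 7e-08).

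H1f5 had the highest level per kilobase of annotated exon of all members. It held 1384 and 1212 normalized reads without IAA, 1801 and 1737 with IAA, 1269 and 1321 with wild-type CTCF and 1092 and 1278 with mutated CTCF. Every IAA control value was above all the others, and the other 3 groups overlapped. The changes were 0.45 (SE 0.061, adjusted p = 9.7e-08) with IAA, -0.45 (SE 0.061, adjusted p = 2.2e-07) with wild-type CTCF and -0.58 (SE 0.061, adjusted p = 4.6e-10) with mutated CTCF. Between the mutated and wild-type lines it differed by -0.13 (SE 0.061, adjusted p = 0.087), a call that appeared without wild-type replicate 1 (adjusted p = 0.047) or mutated replicate 2 (adjusted p = 0.0037).

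H1f3 behaved much like H1f5, with 1334 and 1397 normalized reads without IAA, 1719 and 1758 with IAA, 1161 and 1377 with wild-type CTCF and 1054 and 1252 with mutated CTCF. It rose with IAA by 0.35 (SE 0.064, adjusted p = 2.8e-05) and was lower than the IAA control by -0.46 (SE 0.064, adjusted p = 4.2e-07) with wild-type and -0.60 (SE 0.064, adjusted p = 9.4e-10) with mutated CTCF. H1f1 and H1f2 followed the same order, with IAA differences of 0.26 and 0.38 (adjusted p = 0.00031 and 5.7e-06) and mutated CTCF differences of -0.58 and -0.46 (adjusted p = 1.1e-10 and 2e-07). H1f6 was low, with 14.2 and 18.1 reads without IAA and 40.5 and 35.2 with IAA, 1.19 (SE 0.28, adjusted p = 0.00078). Its mutated CTCF value against the IAA control was -0.68 (SE 0.28, adjusted p = 0.057).

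**Figure D3:**
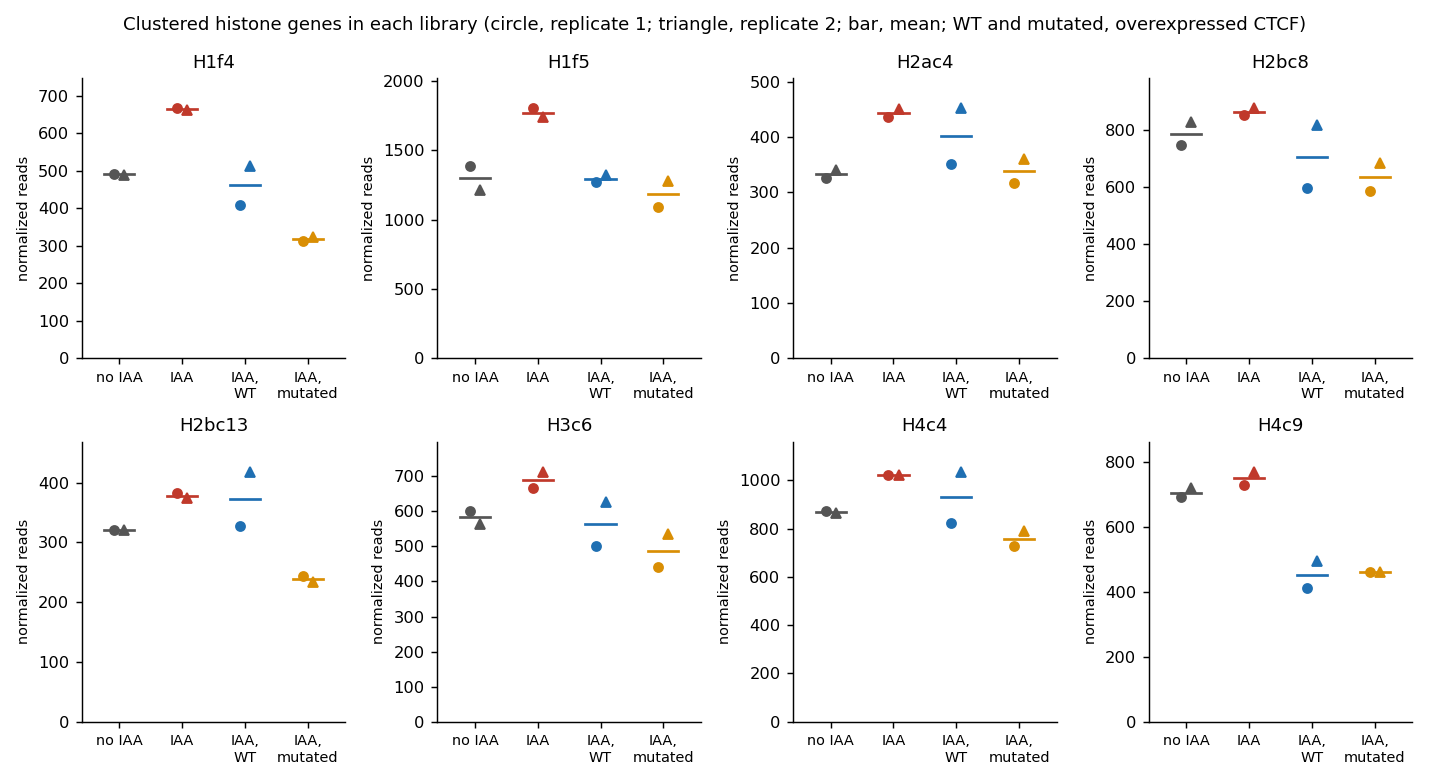
Normalized reads of 8 clustered genes in each library, with a circle for replicate 1, a triangle for replicate 2 and a bar for the mean of the 2. H1f4 shows separate IAA control and mutated CTCF values, and H4c9 is near its untreated level with IAA and lower in both overexpression lines.

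H2A and H2B pair into the dimers that flank the H3 and H4 tetramer in the nucleosome core, and most of their clustered genes sit as divergent pairs. With IAA 3 of 19 H2A genes (15.8%) and 5 of 18 H2B genes (27.8%) rose, against 19.4% of all genes. Against the IAA control 4 and 4 fell with wild-type CTCF (7 and 6 after median-of-ratios rescaling), when 10% of all genes fell, and 9 and 11 with mutated CTCF, when 12.4% did. Leaving out 1 library gave 1 to 3 H2B calls with IAA, and 6 to 10 H2A and 7 to 11 H2B calls with mutated CTCF. With wild-type CTCF 0 H2A and 0 H2B genes fell and 2 H2B genes rose without wild-type replicate 1, 6 and 8 fell without wild-type replicate 2, and 1 and 1 fell without IAA control replicate 1. The H2A sums were 2900.0 and 2901 without IAA, 3508 and 3345 with IAA, 2845 and 3253 with wild-type CTCF and 2442 and 2808 with mutated CTCF. For H2B they were 3944 and 4127, 4514 and 4396, 3471 and 4643, and 3170.0 and 3531 in the same order. The second wild-type library had the highest H2B sum of all 8 and the first had the second lowest.

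Among H2A genes H2ac4 had the highest mean. It held 325 and 339.6 normalized reads without IAA, 436 and 451 with IAA, 351 and 451 with wild-type CTCF and 318 and 361 with mutated CTCF. Its values with IAA lay above both untreated ones, and wild-type replicate 2 was level with the IAA control. The log2 fold change was 0.41 (SE 0.093, adjusted p = 0.00042) with IAA, -0.15 (SE 0.093, adjusted p = 0.21) with wild-type CTCF and -0.39 (SE 0.093, adjusted p = 0.0011) with mutated CTCF. H2ac15 was alike, with 302 and 294 without and 436 and 379 with IAA, 0.45 (SE 0.092, adjusted p = 0.00013). Its fall with mutated CTCF to 325 and 328, -0.32 (SE 0.092, adjusted p = 0.0063), was not called without IAA control replicate 1 (log2 fold change -0.22, adjusted p = 0.16). Hist1h2an, a copy without a stem-loop match, held 160.5 and 173 normalized reads without IAA, 220.4 and 218 with IAA, 169.6 and 172 with wild-type CTCF and 117 and 148 with mutated CTCF. It fell with mutated CTCF by -0.73 (SE 0.12, adjusted p = 8e-06), whereas its IAA value of 0.39 (SE 0.12, adjusted p = 0.0097) lost its call without untreated replicate 1 (0.34, adjusted p = 0.11) or IAA control replicate 1 (0.38, adjusted p = 0.056).

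H2bc8 had the highest mean of the H2B genes, with 746 and 827 normalized reads without IAA, 852 and 874 with IAA, 595 and 815 with wild-type CTCF and 587 and 682 with mutated CTCF. The mutated libraries overlapped only those of wild-type CTCF. With IAA its difference was 0.14 (SE 0.085, adjusted p = 0.22), with mutated CTCF -0.45 (SE 0.085, adjusted p = 6.2e-05). The wild-type difference of -0.31 (SE 0.085, adjusted p = 0.005) was -0.08 (adjusted p = 0.47) without wild-type replicate 1 and was not called without IAA control replicate 2 (-0.29, adjusted p = 0.06). H2bc3 held 543 and 595 normalized reads without IAA, 628 and 617 with IAA, 459 and 622 with wild-type CTCF and 433 and 491 with mutated CTCF, and was lower than the IAA control with mutated CTCF by -0.43 (SE 0.089, adjusted p = 0.00017).

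H2bc9 was the H2B gene whose rise with IAA kept its call without any 1 library. It held 182 and 210.3 normalized reads without IAA, 303 and 291 with IAA, 243 and 331 with wild-type CTCF and 172 and 201 with mutated CTCF. Both wild-type values stayed above the untreated ones, and the mutated values overlapped the untreated ones. The log2 fold change was 0.60 (SE 0.12, adjusted p = 6.2e-05) with IAA, -0.07 (SE 0.12, adjusted p = 0.7) for wild-type CTCF against the IAA control and -0.61 (SE 0.12, adjusted p = 6.8e-05) for mutated against wild-type CTCF. H2bc13 had its lowest values with mutated CTCF: 320.1 and 322 normalized reads without IAA, 382 and 374 with IAA, 327 and 418 with wild-type CTCF and 243 and 234 with mutated CTCF. Mutated CTCF was below the IAA control by -0.66 (SE 0.096, adjusted p = 6.3e-07) and below wild-type CTCF by -0.63 (SE 0.096, adjusted p = 1.5e-06). The H2bc13 rise with IAA, 0.24 (SE 0.096, adjusted p = 0.048), was not called without any 1 of the 4 libraries (adjusted p = 0.11 to 0.18).

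Other copies with lower values showed similar steps. H2bc11 held 118 and 112 reads in the IAA control, 90.0 and 144 with wild-type and 65.8 and 77.1 with mutated CTCF. Its mutated value was below the IAA control by -0.68 (SE 0.17, adjusted p = 0.0014) and below wild-type CTCF by -0.67 (SE 0.17, adjusted p = 0.0017), the latter not called without wild-type replicate 2 (-0.33, adjusted p = 0.2). Hist1h2bq shared 99.7% of its 50-base stretches with other members and held 71.0 and 70.7 normalized reads without IAA, 119 and 94.6 with IAA, 54.2 and 78.1 with wild-type CTCF and 51.2 and 68.2 with mutated CTCF, with -0.83 (SE 0.19, adjusted p = 0.0005) for mutated CTCF. H2bc7 was above the untreated control in the wild-type libraries, 237 and 310.2 against 206 and 201, at 0.41 (SE 0.11, adjusted p = 0.0027), a call lost without wild-type replicate 2 (0.22, adjusted p = 0.19).

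H3 and H4 form the tetramer at the centre of the nucleosome. With IAA 5 of 11 H3 (45.5%) and 4 of 13 H4 genes (30.8%) rose, against 19.4% of all genes. With libraries rescaled to the same total 2 H3 genes rose, and 4 H4 genes rose while 2 fell. With wild-type CTCF 6 and 6 fell against the IAA control, when 10% of all genes did (8 and 8 after median-of-ratios rescaling), and with mutated CTCF 10 of 11 and 12 of 13 fell, when 12.4% did. Without wild-type replicate 1 the wild-type counts were 2 and 1, with 1 H4 gene higher, and without wild-type replicate 2 they were 9 and 10. Without IAA control replicate 1 they were 5 and 2, and without IAA control replicate 2 they were 3 and 3. Leaving out 1 library gave 1 to 3 H3 and 2 to 4 H4 calls with IAA. The H3 sums were 4855 and 4884 without IAA, 5590.0 and 5664 with IAA, 4196 and 5257 with wild-type CTCF and 3684 and 4212 with mutated CTCF. The H4 sums were 5721 and 5588, 6362 and 6343, 4779 and 6274, and 4556 and 4794 in that order.

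H3c6 had the highest mean of the H3 genes, with 602 and 564 normalized reads without IAA, 666 and 713 with IAA, 502 and 626 with wild-type CTCF and 441 and 535 with mutated CTCF. Mutated CTCF lay below the IAA control by -0.50 (SE 0.084, adjusted p = 8.5e-06). Its rise with IAA, 0.24 (SE 0.084, adjusted p = 0.021), was not called without untreated replicate 1 or 2 or IAA control replicate 2 (log2 fold change 0.19 to 0.29, adjusted p = 0.065 to 0.23). The wild-type difference of -0.30 (SE 0.084, adjusted p = 0.0061) was -0.14 (adjusted p = 0.23) without wild-type replicate 1. H3c10 held 578 and 549 normalized reads without IAA, 678 and 615 with IAA, 518 and 637 with wild-type CTCF and 414 and 463 with mutated CTCF, and all mutated values were the lowest. It was below the IAA control by -0.56 (SE 0.081, adjusted p = 6.2e-07) and below wild-type CTCF by -0.39 (SE 0.081, adjusted p = 0.00018).

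H4c4 held 874 and 865 normalized reads without IAA, 1022 and 1023 with IAA, 824 and 1036 with wild-type CTCF and 728 and 789.9 with mutated CTCF. Its IAA values exceeded both untreated ones, 0.23 (SE 0.07, adjusted p = 0.0072), a call lost without untreated replicate 1 (adjusted p = 0.06) or 2 (adjusted p = 0.082). Mutated CTCF was lower than the IAA control by -0.43 (SE 0.07, adjusted p = 5.1e-06). H4c1 held 624 and 576 normalized reads without IAA, 658 and 645 with IAA, 521 and 706 with wild-type CTCF and 481 and 538 with mutated CTCF, and passed for mutated CTCF against the IAA control alone among the IAA, wild-type and mutated comparisons, at -0.36 (SE 0.087, adjusted p = 0.0012).

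H4c9 (ENSMUSG00000060639.5) was the 1 of 13 H4 genes called between wild-type CTCF and the untreated control. It held 691 and 721 normalized reads without IAA, 729 and 769.9 with IAA, 412 and 494 with wild-type CTCF and 461 and 462 with mutated CTCF. The untreated and IAA control values lay next to each other, and both overexpression lines lay well below them, with no overlap. On the log2 scale it changed by 0.09 (SE 0.075, adjusted p = 0.39) with IAA, -0.73 (SE 0.075, adjusted p = 4.1e-10) with wild-type CTCF and -0.70 (SE 0.075, adjusted p = 9.4e-10) with mutated CTCF. Against the untreated control both lines were lower, by -0.64 (SE 0.075, adjusted p = 3.8e-09) and -0.61 (SE 0.075, adjusted p = 1.3e-08). The lines differed from each other by 0.03 (SE 0.075, adjusted p = 0.78), with the wild-type values on both sides of the mutated ones.

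**Figure D4:**
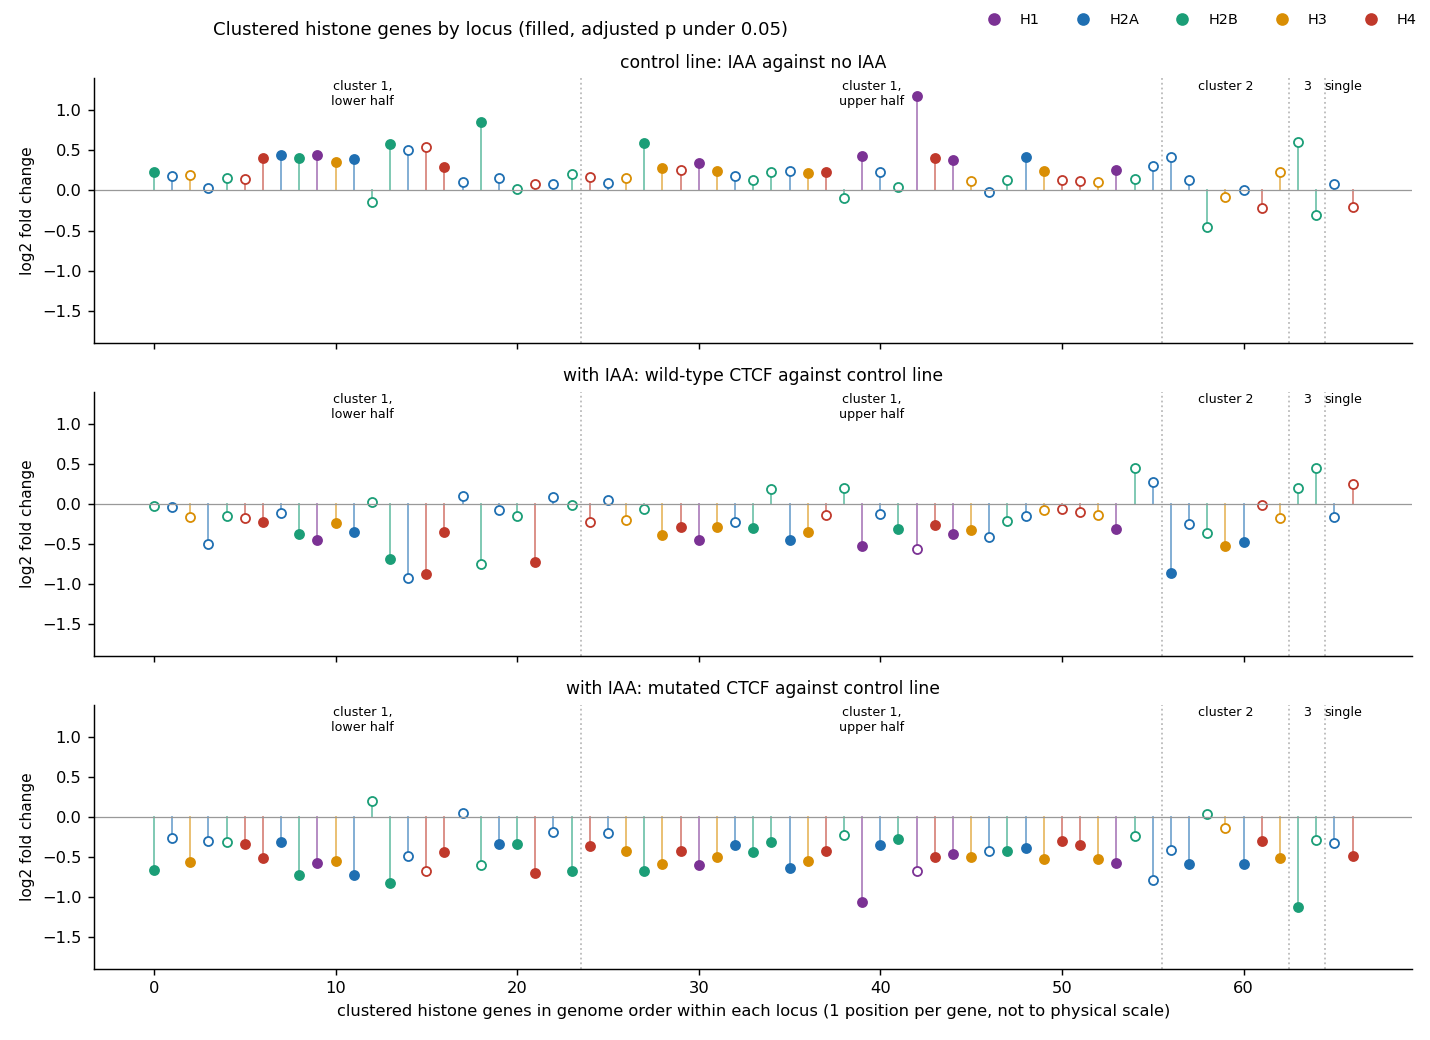
Log2 fold change of the 67 clustered genes in genome order within each locus (1 position per gene, not to physical scale) in the IAA, wild-type CTCF and mutated CTCF comparisons. Colours mark families, and filled points passed an adjusted p of 0.05. The 23 filled points with IAA all lie in cluster 1, where most of the 67 genes lie, and with mutated CTCF 41 of the 47 filled points do.

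By position, the IAA calls were spread over both parts of cluster 1, with 10 of 24 genes in the lower and 13 of 32 in the upper part (median log2 fold change 0.22 and 0.23), against 19.4% of all genes higher. Of the calls kept without any 1 library, those of H1f5, H2ac15, H3c11 and H4c12 lay in the lower part and the others in the upper part. Outside cluster 1, 0 of 11 genes were called in limma, edgeR or DESeq2, with a median of 0.01 in limma. At an unadjusted p below 0.05 limma had 1 gene (H4c14, lower), edgeR 3 (1 higher and 2 lower) and DESeq2 0. Of the 11, H2ac21, H2bc21, H2bu1-ps and H2bu2 had a mean under 50. With libraries rescaled to the same total, H4c14 and H4f16 were called lower in limma. Whether the loci differed was not tested. With mutated CTCF 15 of 24, 26 of 32 and, outside cluster 1, 6 of 11 fell against the IAA control (medians -0.51, -0.44 and -0.41), against 12.4% of all genes.

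Outside cluster 1, H3c15 of cluster 2 was lower with wild-type CTCF. It held 179.7 and 198 normalized reads without IAA, 172 and 185 with IAA, 113 and 135 with wild-type CTCF and 147 and 177 with mutated CTCF. Both wild-type values were the lowest of the 8, at -0.53 (SE 0.13, adjusted p = 0.0013) against the IAA control and -0.61 (SE 0.13, adjusted p = 0.00013) against the untreated control. It was the 1 clustered gene called higher in the mutated line than in the wild-type line, 0.39 (SE 0.13, adjusted p = 0.015), a call lost without wild-type replicate 1 (0.26, adjusted p = 0.18) or mutated replicate 2 (0.26, adjusted p = 0.22). H2ac19 of cluster 2 held 104 and 107 in the IAA control, 71.7 and 78.1 with wild-type and 56.4 and 86.0 with mutated CTCF. Its wild-type difference, -0.49 (SE 0.17, adjusted p = 0.028), was lost without either IAA control library or wild-type replicate 1 (adjusted p = 0.091 to 0.12).

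H4f16, an H4 gene that stands alone on chromosome 6, held 396 and 369.8 normalized reads without IAA, 331 and 332 with IAA, 336 and 460.0 with wild-type CTCF and 219 and 252 with mutated CTCF. The IAA values were below both untreated ones, at -0.21 (SE 0.1, adjusted p = 0.11), which passed with libraries rescaled to the same total (-0.26, adjusted p = 0.033). Mutated CTCF was the lowest group, below the IAA control by -0.49 (SE 0.1, adjusted p = 0.0002), below wild-type CTCF by -0.74 (SE 0.1, adjusted p = 2.9e-07) and below the untreated control by -0.70 (SE 0.1, adjusted p = 5.8e-07). Its neighbour in the annotation is the variant gene H2aj.

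Across all 6 comparisons 12 clustered genes (17.9%) passed in none, against 26.7% of all genes tested: H2ac10, H2ac11, H2ac13, H2ac14, H2ac5-ps, H2bc1, H2bc14, H2bu1-ps, Hist1h2al, Hist1h2ao, Hist1h2ap and Hist1h2bp. They include the 4 pseudogenes and H2bc1, which encodes a testis-specific H2B. No H1, H3 or H4 gene was among them.

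Of the 8 variant genes 1 to 4 were called in each comparison. With IAA H2aj, H2az2 and H1f10 fell and none of the 8 rose (37.5%, against 37.7% of all genes called). With wild-type CTCF H2az1 was called higher than the IAA control (12.5%, against 31.6%). That call depended on the scale. After median-of-ratios rescaling and in edgeR none of the 8 was called higher and those called were lower, and DESeq2 called none. With mutated CTCF H2az2 rose and H1f0 and H3f3b fell (37.5%, against 34.3%). Against the untreated control all calls were lower, those of H2aj, H2az2 and H3f3a with wild-type CTCF (37.5%, against 43.2%) and of H1f0, H1f10, H2aj and H3f3b with mutated CTCF (4 of 8, against 37.8%). Only the call of H2aj with wild-type CTCF and that of H3f3b with mutated CTCF were kept when each library was left out in turn. These comparisons and that of IAA share the untreated libraries.

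H3f3a and H3f3b encode the same H3.3 protein, the H3 form placed independently of replication. H3f3b (ENSMUSG00000016559.14) held 3536 and 3646 normalized reads without IAA, 3588 and 3523 with IAA, 3235 and 3620.2 with wild-type CTCF and 2948 and 2885 with mutated CTCF. Both mutated values were the lowest of the 8. The difference from the IAA control was -0.29 (SE 0.043, adjusted p = 1.3e-06) with mutated CTCF and -0.06 (SE 0.043, adjusted p = 0.35) with wild-type CTCF, and that of the IAA control from the untreated control was -0.01 (SE 0.043, adjusted p = 0.83). Mutated CTCF was also below wild-type CTCF, at -0.23 (SE 0.043, adjusted p = 4.4e-05), a call lost without the mean-variance trend. H3f3a held 2544 and 2663 normalized reads without IAA, 2541 and 2509 with IAA, 2388 and 2458 with wild-type CTCF and 2643 and 2598 with mutated CTCF, with 0.05 (SE 0.042, adjusted p = 0.35) for mutated CTCF against the IAA control. Mutated against wild-type CTCF it was higher by 0.11 (SE 0.042, adjusted p = 0.034), a call lost without wild-type replicate 1 or either mutated library (adjusted p = 0.075 to 0.19). The 2 genes of 1 protein thus had calls of opposite sign in that comparison.

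H2az1 and H2az2 encode the 2 forms of H2A.Z, a variant found at promoters. H2az2 (ENSMUSG00000041126.16) held 1206 and 1161 normalized reads without IAA, 1016 and 994 with IAA, 1021 and 1047 with wild-type CTCF and 1216 and 1213 with mutated CTCF. The IAA control and wild-type CTCF values were below all untreated and mutated ones. It fell with IAA by -0.24 (SE 0.054, adjusted p = 0.00054) and was higher with mutated CTCF than in the IAA control by 0.27 (SE 0.054, adjusted p = 0.0001) and than with wild-type CTCF by 0.23 (SE 0.054, adjusted p = 0.00079). H2az1 held 888 and 884 normalized reads without IAA, 789 and 829 with IAA, 797 and 1133 with wild-type CTCF and 825 and 861 with mutated CTCF, so the 2 wild-type libraries enclosed most other values. Its wild-type difference from the IAA control, 0.23 (SE 0.082, adjusted p = 0.027), became -0.02 without wild-type replicate 2. H2az1 was not called higher in that comparison after median-of-ratios rescaling, in edgeR or in DESeq2.

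H2ax, which is phosphorylated around DNA breaks and whose gene carries the stem-loop, held 931 and 908 normalized reads without IAA, 954 and 943 with IAA, 852 and 971 with wild-type CTCF and 888 and 1003 with mutated CTCF. All groups overlapped apart from the untreated and IAA pairs, and its log2 differences over the IAA, wild-type and mutated comparisons were 0.04 (SE 0.064, adjusted p = 0.62), -0.06 (SE 0.064, adjusted p = 0.51) and -0.01 (SE 0.064, adjusted p = 0.95). H2aj, a variant H2A of mammals, held 204 and 225 normalized reads without IAA, 156 and 141 with IAA, 139.9 and 157 with wild-type CTCF and 161 and 167 with mutated CTCF. Both untreated values were above all 6 IAA values, with -0.53 (SE 0.12, adjusted p = 0.00046) for IAA, -0.53 (SE 0.12, adjusted p = 0.00042) for wild-type CTCF and -0.38 (SE 0.12, adjusted p = 0.0097) for mutated CTCF against the untreated control. The last call was lost without untreated replicate 2 (-0.31, adjusted p = 0.13) or mutated replicate 1 (-0.36, adjusted p = 0.059).

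H1f0 is the linker histone that accumulates in cells that stop dividing. It held 532 and 534 normalized reads without IAA, 582 and 621 with IAA, 553 and 638 with wild-type CTCF and 464 and 452 with mutated CTCF. The mutated values were the lowest, below the IAA control by -0.39 (SE 0.074, adjusted p = 5e-05) and below wild-type CTCF by -0.38 (SE 0.074, adjusted p = 0.0001). Its IAA difference was 0.17 (SE 0.074, adjusted p = 0.062). H1f10 was low, with 46.8 and 49.998 reads without and 29.8 and 29.7 with IAA, -0.68 (SE 0.24, adjusted p = 0.021), and this call was lost without any 1 of the 4 libraries (adjusted p = 0.067 to 0.12).

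**Figure D5:**
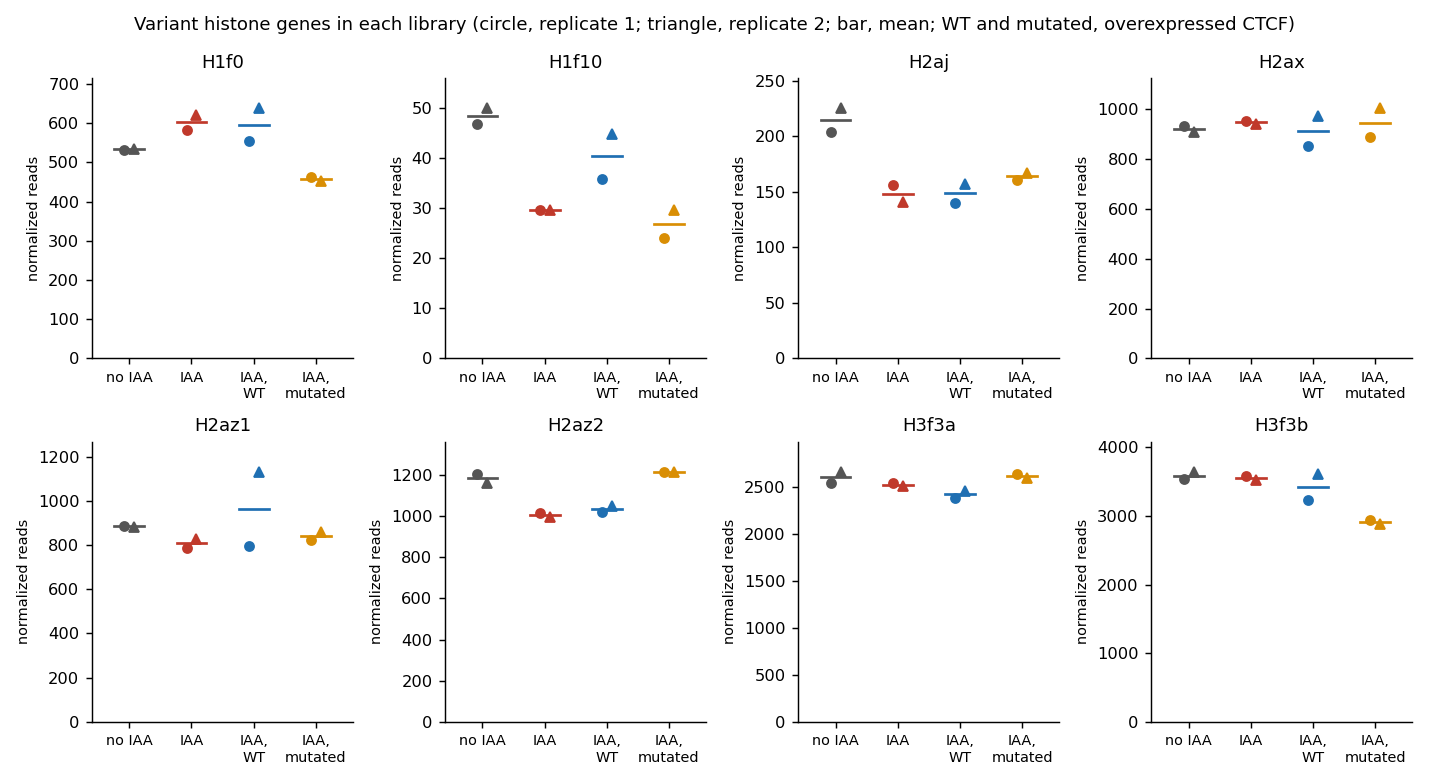
Normalized reads of the 8 variant histone genes in each library, with a circle for replicate 1, a triangle for replicate 2 and a bar for the mean of the 2. H2az2 is low in the IAA control and with wild-type CTCF, and H3f3b and H1f0 are lowest with mutated CTCF.

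Of the variants outside the name pattern, Macroh2a1 (macroH2A1) rose with IAA (0.39, adjusted p = 3.6e-10). With mutated CTCF it was lower than in the IAA control (-0.15, adjusted p = 0.0034) and than with wild-type CTCF (-0.20, adjusted p = 0.00014). Macroh2a2 was higher with mutated CTCF than in the IAA control (0.18, adjusted p = 0.010) and than with wild-type CTCF (0.25, adjusted p = 0.00057). Cenpa, the H3 variant of centromeres, fell with IAA (-0.17, adjusted p = 0.020). With mutated CTCF it was higher than in the IAA control (0.25, adjusted p = 0.00056) and than with wild-type CTCF (0.14, adjusted p = 0.048). Against the untreated control Macroh2a1 was called higher in both lines (0.44 and 0.24) and Macroh2a2 lower with wild-type CTCF (-0.14).

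Genes that transcribe clustered histone genes or process their mRNA ends are given beside the clustered genes. The list held 26 genes, 24 of them tested. With IAA 3 rose and 8 fell (median log2 fold change -0.05), against 19.4% and 18.4% of all genes. Lsm11, a protein of the U7 particle that cleaves histone pre-mRNA, rose most (1.19, adjusted p = 2.8e-16). Its libraries held 259.9 and 257.8 reads without IAA, 568 and 616 with IAA, 522 and 516 with wild-type CTCF and 544 and 586 with mutated CTCF. All 6 IAA libraries lay above the untreated pair. Srrt, which encodes the cap-binding partner ARS2, rose as well (0.41, adjusted p = 1.5e-06). Lsm10, the partner of Lsm11, fell (-0.68, adjusted p = 0.015), as did Zfp473 (-0.33, adjusted p = 0.013), whose product binds the U7 particle. The Lsm10 call was lost without any 1 of the 4 libraries (adjusted p = 0.053 to 0.14), and that of Zfp473 without either untreated library or IAA control replicate 2 (adjusted p = 0.059 to 0.091).

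Against the IAA control 14 of the 24 rose and 0 fell with wild-type CTCF (median 0.18, with 21.5% and 10% of all genes and a median over all genes of 0.06), led by Cdk2 (0.51, adjusted p = 9.8e-06), a kinase that drives S phase entry, and E2f1 (0.43, adjusted p = 1.4e-05). With mutated CTCF 11 rose and 0 fell (median 0.12, with 22% and 12.4% of all genes), among them E2f1 (0.45, adjusted p = 5.5e-06). Without wild-type replicate 1 or 2 the wild-type count was 13 or 9, and leaving out an IAA control library gave 9 and 8. Leaving out 1 library gave 6 to 9 with mutated CTCF and 4 to 5 genes lower with IAA. Between the lines 2 were higher and 3 lower with mutated CTCF, against 16.3% and 18.4% of all genes. Slbp, which encodes the stem-loop binding protein, was higher (0.17, adjusted p = 0.005) and Srrt lower (-0.40, adjusted p = 3.5e-06), and the Slbp call was lost without wild-type replicate 1 (0.14, adjusted p = 0.058).

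Histone chaperones carry histones to and from chromatin, and 34 of 34 listed here were tested. With IAA 10 rose and 7 fell (median 0.01), against 19.4% and 18.4% of all genes, and 3 to 5 fell when 1 library was left out. Tonsl, which binds new H4 on replicated DNA, rose (0.46, adjusted p = 0.00073), as did Ino80 (0.36, adjusted p = 3.6e-12), a remodeller of H2A.Z nucleosomes. Asf1a, a carrier of H3 and H4, fell (-0.32, adjusted p = 1.5e-06). With wild-type CTCF 11 rose and 1 fell against the IAA control (median 0.12, with 21.5% and 10% of all genes), led by Daxx (0.57, adjusted p = 4.9e-05), a chaperone of H3.3. Without wild-type replicate 1 or 2, 13 or 7 rose. With mutated CTCF 11 rose and 3 fell (median 0.07, with 22% and 12.4% of all genes), with Chaf1b of the CAF-1 complex up (0.32, adjusted p = 2.5e-05) and Ubn2 of the HIRA complex down (-0.34, adjusted p = 6.3e-10).

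Markers of S phase, when clustered histone genes are transcribed, were listed for comparison. Of the 29 tested, 3 rose and 10 fell with IAA (median -0.02), 18 rose and 1 fell with wild-type CTCF (median 0.17) and 15 rose and 0 fell with mutated CTCF (median 0.16), the last 2 against the IAA control. The shares over all genes in these comparisons were 19.4% higher and 18.4% lower, 21.5% and 10%, and 22% and 12.4%, with a median over all genes of 0.06 in both overexpression comparisons. Without wild-type replicate 1 or 2, 19 or 8 rose with wild-type CTCF, and without IAA control replicate 1, 9 did. Leaving out 1 library gave 8 to 14 higher with mutated CTCF and 4 to 8 lower with IAA. Their summed level on the authors' scale was 63267 to 65457 normalized reads without IAA and 62783 to 62982 with IAA. It was 63644 to 66725 with wild-type CTCF and 65537 to 67026 with mutated CTCF. The factors by which median-of-ratios rescaling divides were 0.976 and 0.996 in the IAA control libraries. They were 1.007 and 1.044 with wild-type CTCF and 1.007 and 1.036 with mutated CTCF. Counts of this and the preceding gene lists are also on the authors' scale and are not given after rescaling. Rrm2, a subunit of ribonucleotide reductase, fell with IAA (-0.46, adjusted p = 2.4e-08) and was higher than the IAA control with wild-type CTCF (0.53, adjusted p = 1.8e-09) and mutated CTCF (0.43, adjusted p = 2.1e-07). Gins2, of the replicative helicase, also fell with IAA (-0.57, adjusted p = 4.3e-05), whereas Fen1, a nuclease that trims Okazaki fragments, and Dscc1, of a clamp loader, rose (0.24, adjusted p = 0.011; 0.22, adjusted p = 0.049). The Fen1 call was lost without untreated replicate 1 or IAA control replicate 1 (adjusted p = 0.13 and 0.08), and that of Dscc1 without either untreated library or IAA control replicate 2 (adjusted p = 0.071 to 0.33). The part of cell cycle position in these results was not tested.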

How the data were processed

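Trim Galore, STAR, featureCounts and DESeq2 on mm10 are named in the submitters' processing notes, without versions or settings. The authors deposited 1 table of normalized read counts per gene, a signal on a common scale. In 7 of the 8 columns, and by the same steps in the other, 100% of values were whole multiples of 1 read within 0.01, so reads were recovered. The other column was mutated CTCF replicate 2. The check of whole reads did not accept it, since its step of 0.989 lies close to 1. No comparison with mutated CTCF was therefore tested with edgeR or DESeq2.

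Here log2(value + 1) was fitted with limma 3.58.1 (R 4.3.3) for the 15818 genes with a mean of at least 10, with 1 coefficient per group (4 residual degrees of freedom) and a mean-variance trend. A fold change is on that log2(value + 1) scale and understates changes of low genes. Benjamini-Hochberg adjustment ran over all genes tested, separately in each of 6 comparisons, and a gene was called at 0.05. Recovered reads were tested with edgeR 4.0.16 and DESeq2 1.42.0 in the 6 libraries of the control and wild-type CTCF groups. The fit was also run on simulated data, and no result of that is given here. Alternatives were other pseudocounts, filters, scales and fits, and leaving out each library.

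Members and gene lists were chosen with earlier results of these data known. Values per library are given for variant genes with a mean of at least 50, the 2 highest clustered genes of each family, and in each comparison up to 3 clustered genes per direction of largest called change with a mean of at least 50 and no overlap. H1f1, H1f2, H1f6, H1f10, the members without any call and the further variants were named outside that rule, after their values were seen. From the related lists at most 2 genes per direction and comparison are named. Stem-loops were matched to GRCm38 with GENCODE M21, and promoters come from RefSeq on GRCm38.p6, by symbol.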

Additional observations from a re-analysis of the deposited data

How the results depend on the processing

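Of 3725 values of single named genes under an alternative, 3347 kept their side of the threshold, 272 lost it and 105 newly passed it. Of the 3347, 3246 kept their direction, and the rest were past the threshold in neither setting and changed sign, 63 of them without 1 library. The 1 called value that changed sign was that of H2az1 in the wild-type comparison without wild-type replicate 2 (-0.02, against 0.49 without wild-type replicate 1). Dropping the mean-variance trend lowered the clustered counts to 6 (IAA), 5 (wild-type against IAA control), 22 (mutated against IAA control), 5 (mutated against wild-type), 4 (wild-type against untreated) and 6 (mutated against untreated). Over all genes that fit called 3946, 2379, 3228, 3263, 4878 and 3869. In the direction of the clustered calls these were 1952, 789, 1319, 1797, 1785 and 1567. The clustered share was below that of all genes with IAA, between the 2 overexpression lines and for both lines against the untreated control. DESeq2 called 14 (IAA), 15 (wild-type against IAA control) and 3 (wild-type against untreated) clustered genes, and edgeR called 26, 35 and 17. Over all genes DESeq2 called 3858, 2616 and 4458, and edgeR 6576, 5037 and 7514. The fit on the 2 groups alone gave 16 for mutated against wild-type CTCF, and the same total gave 17 for wild-type against untreated. Leaving out 1 library gave 13 to 18, 11 to 38, 39 to 47, 10 to 44, 5 to 21 and 12 to 32 calls in the order above. For the variant genes in the wild-type comparison the count of 1, a higher gene, became 2 after median-of-ratios rescaling and in edgeR (0 higher and 2 lower in each) and 2 with the same total (1 higher and 1 lower), and 0 in the fit on 2 groups, without the trend and in DESeq2. Leaving out 1 library gave 0 to 1, and 1 to 3 for mutated CTCF against untreated. The cause of these changes was not tested. With the replicate number as a block, 24, 28, 48, 32, 12 and 27 clustered genes were called, against 23, 25, 47, 27, 10 and 27 without it. Over all genes tested, deviations of same-numbered libraries from their group means were hardly correlated (mean 0.0037, range -0.022 to 0.028 over 6 pairs of groups). This correlation cannot show whether same-numbered libraries were handled together, which the labels do not say. Of the 12 clustered genes with a mean under 50, 2 were called with IAA. Against the IAA control 2 were called with wild-type and 1 with mutated CTCF, and between these lines 2 were. Against the untreated control 1 was called with wild-type and 0 with mutated CTCF. Depth may limit these genes, and its part was not tested.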
